A study of Mus musculus with 6 samples.

Results

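The proprotein convertases are 7 genes of the 27179 in the count table: *Pcsk6*, *Furin*, *Pcsk5*, *Pcsk7*, *Pcsk1*, *Pcsk2* and *Mbtps1*, picked by gene symbol. They were picked as the family of *Pcsk6*. Between CD34 negative and CD34 positive cancer-associated fibroblasts (CAFs), *Pcsk6* had the smallest p-value of all genes in limma-voom without a tumor term. With the tumor as a block its rank by p-value was 11. Every value of the CD34 comparison is therefore given for the family as a description. No test of the family in that comparison is read as a result. Of the 7 genes, 5 passed the filter on low counts that 14855 genes passed, and *Pcsk1* and *Pcsk2* did not.

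RNA sequencing was performed on CAFs sorted from 3 mammary tumors of raGFP-Wnt1 mice, which carry both a Wnt1 transgene under the mammary tumor virus promoter (*MMTV-Wnt1*) and a *Pdgfra* H2B-GFP reporter allele. All 6 libraries share these alleles, and no age, sex or treatment of the mice was given in the labels. GFP-positive cells of each tumor were split by flow cytometry into cells without CD34 (CD34 negative, 3 libraries) and with CD34 (CD34 positive, 3 libraries), so each tumor gave 1 library of each kind. The reporter limits the cells to those with *Pdgfra* promoter activity, and the 6 libraries represent 3 tumors of a single transgenic model.

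Proprotein convertases are calcium-dependent serine proteases that cut inactive precursor proteins and so release active growth factors, receptors, proteases and hormones. The kexin-type members cut after pairs or clusters of basic residues. Furin, PCSK5, PCSK6 and PCSK7 act in the constitutive secretory pathway, at the cell surface or in the matrix, whereas PCSK1 and PCSK2 process prohormones in the dense-core granules of endocrine and nerve cells. MBTPS1, or site-1 protease, resides in the Golgi and starts the release of the transcription factors SREBP and ATF6 from their membrane anchors.

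Libraries are named by CD34 status and tumor. Totals ran from 35310817 to 59685694 counts in CD34 negative and from 16238059 to 86609267 in CD34 positive libraries. CD34 negative library 3 stood apart with counts for 14314 genes, the fewest, against 16253 to 19220 in the others. Values without it are therefore also given for the 5 tested convertases and for some of the genes in the lists below. *Cd34*, the gene of the sort marker, lay at 74.3 ± 30.2 counts relative to library size (CPM; SD, n = 3) in the negative and 948 ± 571 in the positive libraries, and *Pdgfra* at 386 ± 83.1 and 428 ± 85.8. The summed level of 6 fibroblast markers was 68970 to 87520 CPM in the negative and 76160 to 95380 CPM in the positive libraries. Of these 6 markers, 2 passed the test with the tumor as a block, which called 8.57% of all genes. Of the other cell types checked, the summed level of 5 endothelial markers did not overlap between the groups, at 10.7 to 27.9 CPM in the negative and 54.5 to 128 CPM in the positive libraries. Most of this was *Tek*, the only 1 of the 5 without overlap (5.61 to 12.6 against 48.2 to 121 CPM), whereas the defining markers were low, *Pecam1* at 0.566 to 12.9 CPM over the 6 libraries and *Cdh5* and *Emcn* below 4 CPM in each. No endothelial marker was at 0 in all libraries, and 1 of the 5 passed the test with the tumor as a block. Summed levels of the other lists overlapped: 49.7 to 140 against 13.4 to 129 CPM for 6 epithelial markers, 69.3 to 96.3 against 40.1 to 127 for 5 pericyte markers, 4.28 to 10.3 against 4.50 to 15.0 for 5 immune markers, 1.56 to 6.37 against 2.09 to 3.97 for 3 neuroendocrine markers, 0 to 3.70 against 1.34 to 3.51 for 3 Schwann cell markers and at most 0.919 for 3 adipocyte markers, of which *Cidec* was at 0 throughout. Of the pericyte markers tested, 3 of 4 passed with the block. The part of these cells in the results below was not tested.

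*Pcsk6* encodes PACE4, a secreted convertase that binds heparan sulfate in the matrix. The gene (NCBI 18553) spans chr7:65862136-66050386 on the plus strand of GRCm38.p6. It received 1013, 982 and 578 counts in CD34 negative libraries 1, 2 and 3 and 1763, 8769 and 3519 in CD34 positive libraries 1, 2 and 3. Scaled to library size and gene length (RPKM, reads per kilobase of gene per library size, on the CPM scale), its level was 4.20, 5.06 and 3.70 in the negative and 25.4, 23.9 and 28.9 in the positive libraries. The groups did not overlap, and each positive library exceeded each negative library more than 4-fold. The fitted log2 fold change, negative minus positive, was -2.60 ± 0.19 (SE, n = 3 per group), a 6.05-fold lower level in CD34 negative CAFs. Within tumors 1, 2 and 3 the log2 difference was -2.60, -2.24 and -2.96. Without CD34 negative library 3 the fitted value was -2.51. Fewer *Pcsk6*-expressing cells and less *Pcsk6* RNA per cell cannot be told apart in bulk libraries.

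The 250 bases before the start of 3 convertase genes are shown, since *Pcsk6* differed most between the fractions, *Furin* is the founding member and *Pcsk2* was nearly silent although its promoter resembles theirs in base composition. Sequences are from RefSeq on GRCm38.p6, on the coding strand of each gene, with every GC box (GGGCGG, or CCGCCC on the other strand) in capitals. The windows are chr7:65861886-65862135 (plus strand) for *Pcsk6*, chr7:80402813-80403062 (minus strand) for *Furin* and chr2:143545883-143546132 (plus strand) for *Pcsk2*. The *Furin* window lies within the annotated span of the gene, before the inner of its 2 start sites in the RefSeq table.
Pcsk6: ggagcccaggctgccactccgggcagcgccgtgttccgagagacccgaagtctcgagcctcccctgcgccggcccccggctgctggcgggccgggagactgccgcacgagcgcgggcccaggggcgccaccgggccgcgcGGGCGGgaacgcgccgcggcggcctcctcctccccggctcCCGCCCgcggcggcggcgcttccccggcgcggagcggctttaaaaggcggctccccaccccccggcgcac
Furin: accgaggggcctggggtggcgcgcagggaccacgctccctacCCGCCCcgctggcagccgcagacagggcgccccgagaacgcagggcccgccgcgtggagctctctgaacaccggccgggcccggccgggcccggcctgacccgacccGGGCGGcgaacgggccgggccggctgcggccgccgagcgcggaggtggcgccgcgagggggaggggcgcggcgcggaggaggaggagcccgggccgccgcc
Pcsk2: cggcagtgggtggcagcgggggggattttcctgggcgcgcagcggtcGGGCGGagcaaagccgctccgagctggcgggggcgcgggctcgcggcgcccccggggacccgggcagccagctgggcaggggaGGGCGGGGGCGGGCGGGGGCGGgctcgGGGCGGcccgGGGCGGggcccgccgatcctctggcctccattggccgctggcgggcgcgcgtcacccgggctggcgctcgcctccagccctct

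These windows held 81.2%, 83.2% and 82.4% G or C, above the median of 52.4% over 32851 mouse promoter windows of that length, and 40, 40 and 35 CpG pairs against a median of 6. *Pcsk6* and *Furin* had 2 GC boxes each and *Pcsk2* had 7, counting overlapping matches on both strands, while 32.7% of all windows had at least 1. None of the 3 contained TATAAA on either strand, which 12.4% of all windows did. The window before the outer *Furin* start (chr7:80405437-80405686, minus strand, not printed) was unlike the inner one, with 50.4% G or C, 6 CpG pairs, no GC box and 1 match to TATAAA. The first windows of *Pcsk7*, *Mbtps1* and *Pcsk5* held 80.0%, 68.0% and 64.0% G or C and 3, 1 and 2 GC boxes. The *Pcsk1* window differed from these, with 46.8% G or C, 8 CpG pairs, no GC box and 1 cyclic AMP response element (TGACGTCA), a motif found in 1.55% of all windows. These letter matches describe the windows and were not related to binding of any factor.

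*Furin* encodes the ubiquitous convertase of the trans-Golgi network, which activates TGF-β1, membrane-type metalloproteases and many receptors. The gene (18550) spans chr7:80389194-80405441 on the minus strand. Its level was 20.6, 23.8 and 19.7 RPKM in the negative and 10.4, 16.7 and 15.3 RPKM in the positive libraries. All negative libraries lay above all positive libraries, the reverse of *Pcsk6*. The log2 fold change was 0.58 ± 0.21 (SE), and the differences within tumors 1, 2 and 3 were 0.98, 0.51 and 0.37. It was 0.66 without CD34 negative library 3 and lowest, 0.41, without CD34 positive library 1, which had the lowest *Furin* level.

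*Pcsk5* encodes PC5, a convertase with secreted and membrane-bound isoforms, the former of which binds heparan sulfate like PACE4. The gene (18552) spans chr19:17432314-17837712 on the minus strand. It was the most abundant kexin-type convertase in every library, with 38.2, 46.3 and 39.4 RPKM in the negative and 30.3, 33.6 and 29.9 RPKM in the positive libraries. The groups did not overlap. The log2 fold change was 0.40 ± 0.17 (SE), with 0.33, 0.46 and 0.39 in tumors 1, 2 and 3, the narrowest spread over tumors of the 5 genes. It was 0.44 without CD34 negative library 3 and 0.31 without CD34 negative library 2.

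*Pcsk7* encodes a membrane-bound convertase known to shed the transferrin receptor. The gene (18554) spans chr9:45906447-45932107 on the plus strand. Its level was 6.09, 6.66 and 8.43 RPKM in the negative and 4.48, 6.08 and 7.28 RPKM in the positive libraries. The groups overlapped, although the negative library was the higher of the pair in each tumor. The log2 fold change of 0.19 ± 0.23 (SE) was smaller than its error, and was 0.08 without CD34 negative library 3. With the tumor as a block it was 0.22 ± 0.17 (SE), larger than its error. The exons of *Pcsk7* share 415 bases (7.98% of the exonic bases in GENCODE) with *Rnf214* and 108 bases (2.08%) with *Tagln*, a contractile gene, both on the opposite strand. The TruSeq RNA kit named in the labels does not mark strand, so reads from these stretches cannot be told apart. *Tagln* took 91486 counts over all libraries against 6665 for *Pcsk7*, and lay at 435 ± 251 CPM in the negative and 179 ± 164 CPM in the positive libraries.

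*Mbtps1* encodes site-1 protease. The gene (56453) spans chr8:119508151-119558864 on the minus strand. Its level was 51.5, 42.9 and 54.7 RPKM in the negative and 43.4, 41.7 and 41.4 RPKM in the positive libraries, and CD34 negative library 2 lay within the positive range. The log2 fold change was 0.23 ± 0.17 (SE), with 0.25, 0.04 and 0.40 in tumors 1, 2 and 3, and 0.15 without CD34 negative library 3.

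The prohormone convertases were at or near 0. *Pcsk1* (18548, chr13:75089420-75134861, plus strand) had 0 counts in all 3 negative libraries and 2, 8 and 0 counts in the positive libraries. *Pcsk2* (18549, chr2:143546133-143816284, plus strand) had 0, 3 and 0 counts in the negative and 2, 5 and 0 in the positive libraries. A count of 0 allows up to 3 counts, which is 0.0534, 0.0664 and 0.0825 CPM in negative libraries 1, 2 and 3 and 0.186, 0.0351 and 0.106 CPM in positive libraries 1, 2 and 3, covering counting error only. For *Pcsk1*, CD34 positive libraries 1 and 2, at 0.124 and 0.0936 CPM, lay above the limits of all 3 negative libraries, and CD34 positive library 3 was at 0. The value of library 1 is 2 counts, below the limit of 0.186 CPM of that library, so no difference is read. Both *Pcsk1* and *Pcsk2* overlapped between the fractions, and neither gene was tested. *Pcsk4*, the germ cell convertase and no member of the 7, was erratic, with 32, 25 and 119 counts in the negative and 106, 4 and 1 in the positive libraries, so its direction differed between tumors.

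**Figure D1:**
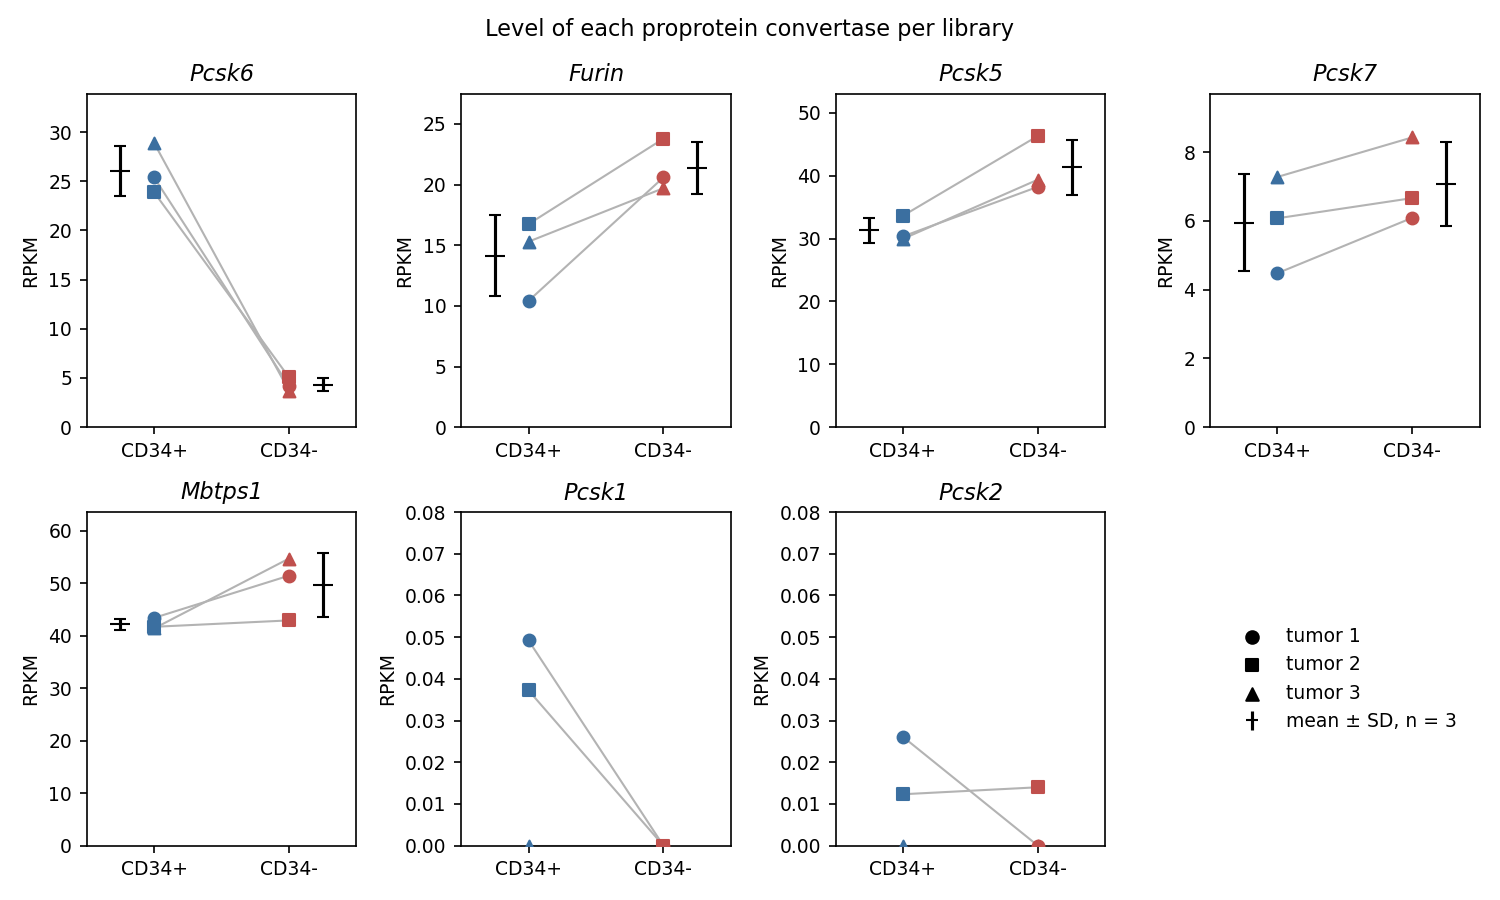
Level of each convertase gene in RPKM (vertical axis, starting at 0) in CD34 positive (blue) and CD34 negative (red) libraries, with a line joining both libraries of a tumor and the mean ± SD of 3 libraries beside the points, except for *Pcsk1* and *Pcsk2*, which are near 0. *Pcsk6* is at 23.9 to 28.9 RPKM in the positive and 3.70 to 5.06 in the negative libraries, while *Furin* and *Pcsk5* are higher in the negative libraries.

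Of the 5 genes tested, *Pcsk6* was lower and *Furin* and *Pcsk5* were higher in CD34 negative CAFs. The fitted value of *Mbtps1* was positive too (0.23 ± 0.17, SE), but its levels overlapped between the groups and differed by only 0.04 in tumor 2. The change of *Pcsk7* was smaller than its error in the fit without the block. The median log2 fold change over all 14855 genes was -0.03. The level ranges of 3 of the 5 (*Pcsk6*, *Furin* and *Pcsk5*) did not overlap between the groups, which held for 20.4% of all genes. In limma-voom, 1 of the 5 (*Pcsk6*) was among the genes with an adjusted p under 0.05, which made up 0.121% of all genes (3 higher and 15 lower in CD34 negative CAFs). In limma-voom no gene was called without CD34 negative library 3 or CD34 positive library 2, where 2217 and 1555 genes had an unadjusted p under 0.05. With the tumor as a block, 2 of the 5 (*Pcsk6* and *Furin*) were among 8.57% of all genes. *Furin* was no longer among them in edgeR with the block, or in limma-voom with the block without tumor 1 or tumor 2. These counts rest on the contrast by which the family was picked. All 5 genes had the same sign in the 3 tumors, as did 46.3% of all genes.

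**Figure D2:**
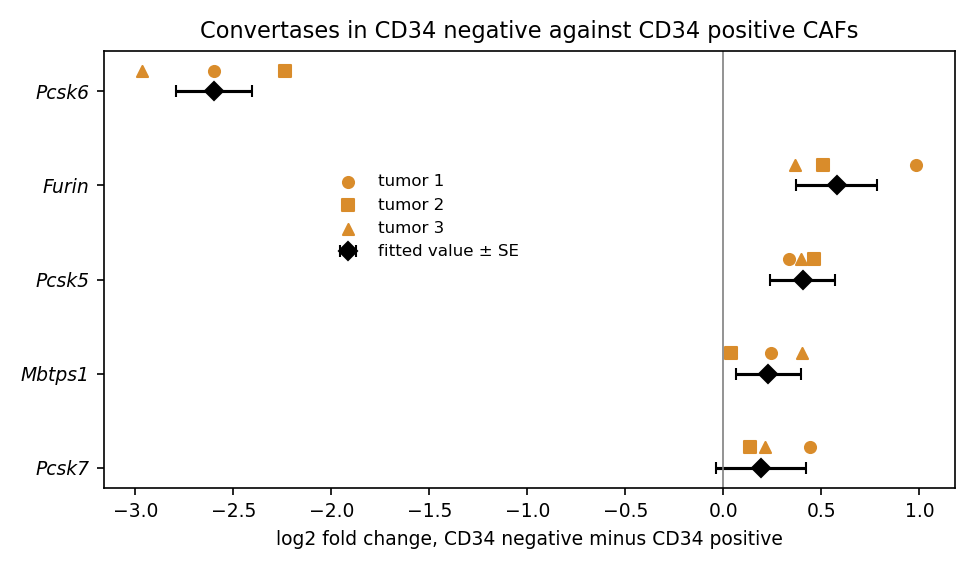
Log2 fold change, CD34 negative minus CD34 positive, of the 5 convertases that passed the filter (diamonds, fitted value ± SE from limma-voom), with the difference within each tumor above it (orange symbols). *Pcsk6* lies at -2.60 and the other 4 between 0.19 and 0.58.

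Between tumors, a comparison that the choice of the family did not use, none of the 5 genes passed the test. The F test of the tumor terms in limma-voom called 4.03% of all genes, and its adjusted p was 0.964 for *Pcsk6*, 0.425 for *Furin*, 0.542 for *Pcsk5*, 0.337 for *Pcsk7* and 0.696 for *Mbtps1*. *Pcsk6* differed by 0.03 on the log2 scale between tumors 2 and 1 and by 0.08 between tumors 3 and 1. With 3 tumors, these p-values do not show that the levels were equal.

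Ordered by level in RPKM, *Mbtps1* (49.7 ± 6.09, SD, n = 3) and *Pcsk5* (41.3 ± 4.38) stood first in CD34 negative CAFs and overlapped, followed by *Furin* (21.4 ± 2.14), *Pcsk7* (7.06 ± 1.22) and *Pcsk6* (4.32 ± 0.688), which did not overlap with their neighbours. In CD34 positive CAFs the order was *Mbtps1* (42.2 ± 1.08), *Pcsk5* (31.3 ± 2.02), *Pcsk6* (26.1 ± 2.57), *Furin* (14.2 ± 3.31) and *Pcsk7* (5.94 ± 1.41), with no overlap between neighbours. *Pcsk6* thus moved from the lowest of the 5 to the third place. Among all tested genes ranked by mean RPKM, *Pcsk6* was at percentile 44.8 in CD34 negative and 84.3 in CD34 positive CAFs, *Furin* at 81.3 and 73.7, *Pcsk5* at 89.9 and 86.9, *Pcsk7* at 56.7 and 52.6 and *Mbtps1* at 91.5 and 90.0.

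The summed level of the 6 kexin-type members was similar in range in both fractions. It was 69.1, 81.8 and 71.2 RPKM in the negative and 70.7, 80.4 and 81.4 RPKM in the positive libraries, and these overlapped. *Pcsk4*, also kexin-type but no member, was left out of the sum. Its level was at most 1.30 RPKM in the negative and 2.61 RPKM in the positive libraries. *Pcsk6* provided 6.07%, 6.18% and 5.20% of the sum in the negative and 35.9%, 29.7% and 35.5% in the positive libraries. *Pcsk5* provided 55.7% ± 0.748 (SD, n = 3) of the sum in the negative and 40.5% ± 3.26 in the positive libraries, and *Furin* 28.9% ± 1.08 and 18.1% ± 3.10. *Pcsk7* provided 9.60% ± 1.97 and 7.61% ± 1.30, which overlapped. There were 4.91, 4.70 and 5.33 times as many *Furin* as *Pcsk6* reads per length in the negative libraries, and 0.410, 0.701 and 0.529 times as many in the positive libraries. The shares follow from the same levels and share the choice by which the genes were picked.

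**Figure D3:**
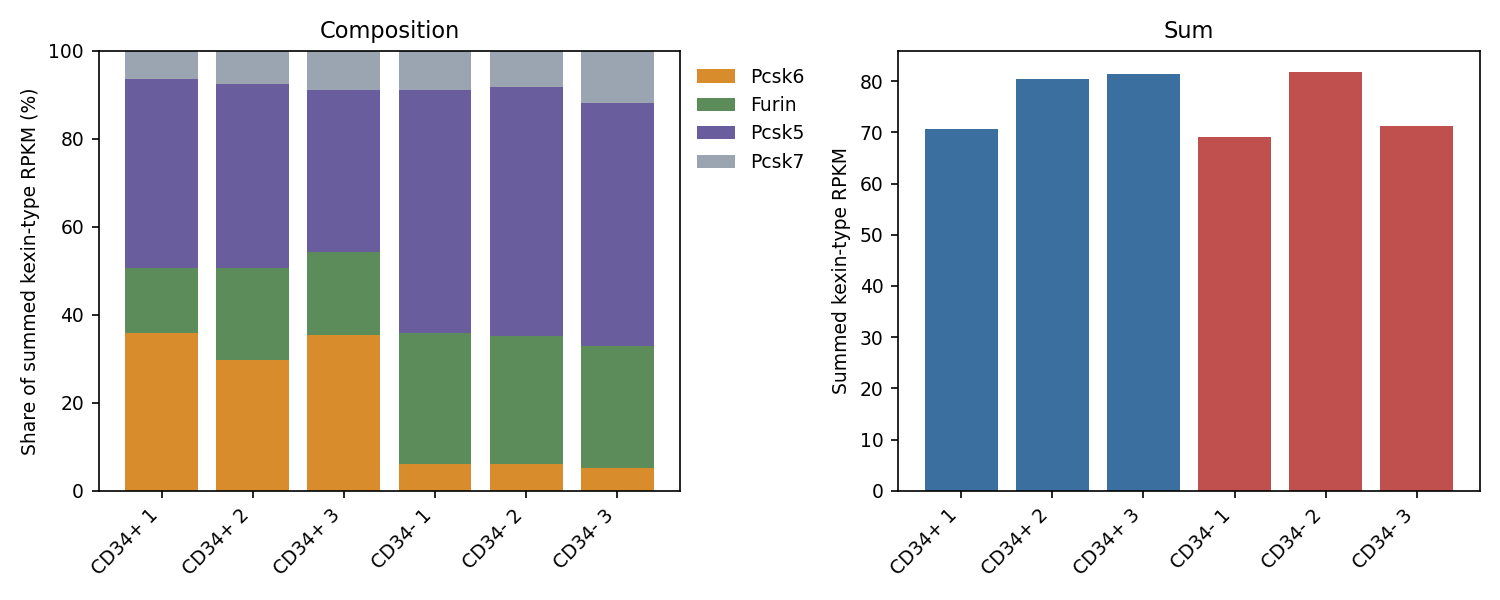
Left, share of the summed RPKM of the kexin-type members, without *Pcsk4*, held by each gene in each library (stacked bars, percent), with *Pcsk1* and *Pcsk2* too low to be drawn. Right, the sum in RPKM, which ranges from 69.1 to 81.8 over CD34 negative (red) and CD34 positive (blue) libraries, while the *Pcsk6* share is 29.7% to 35.9% in CD34 positive and 5.20% to 6.18% in CD34 negative libraries.

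Among 9016 well-expressed genes, the 6 whose profile over the 6 libraries was most like that of *Pcsk6* were *Plac9a*, *Vegfd*, *Spon2*, *Ackr3*, *Galnt16* and *Dpp4*. Likeness was the root mean square difference of log2 CPM after centring each gene on its mean, which was 0.30 for *Plac9a*, 0.32 for *Vegfd*, 0.32 for *Spon2*, 0.34 for *Ackr3*, 0.36 for *Galnt16* and 0.37 for *Dpp4*, with a median of 1.34 over all candidates. *Vegfd* encodes a lymphatic growth factor, *Spon2* a secreted matrix protein, *Ackr3* a scavenging receptor for CXCL12, *Galnt16* an enzyme of O-glycosylation and *Dpp4* a surface peptidase. *Plac9a* has a near-identical copy, so its counts are uncertain. *Cd34* was at 0.81, as rank 158, and the other convertases were at 1.44 to 1.63. The likeness mainly reflects the same difference between the fractions by which *Pcsk6* was picked.

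**Figure D4:**
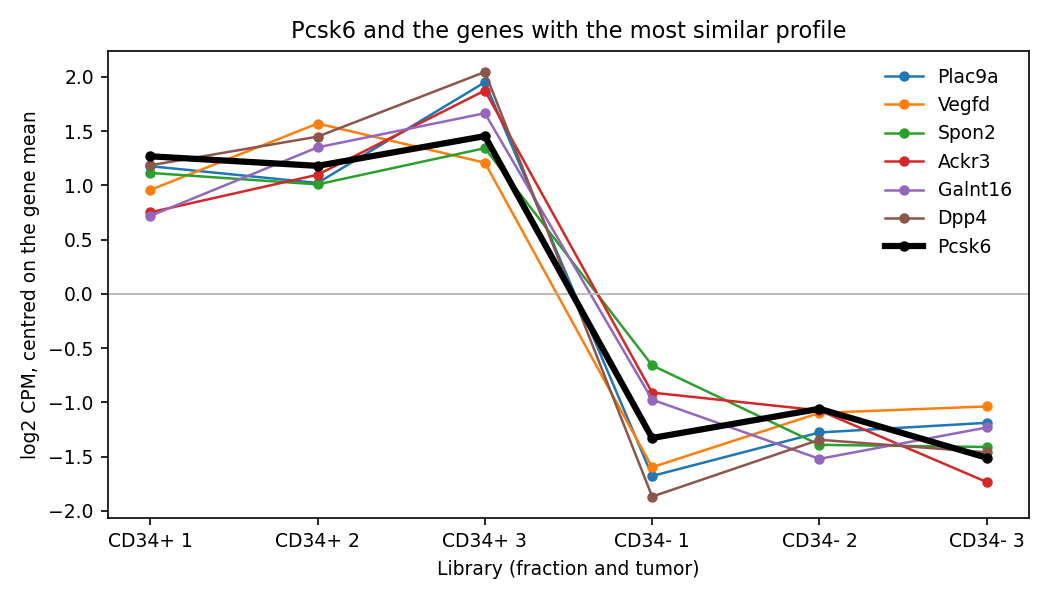
Log2 CPM centred on the mean of each gene (vertical axis) in each library (horizontal axis, fraction and tumor number) for *Pcsk6* (black) and the 6 genes with the most similar profile. All 7 genes lie above 0 in the 3 CD34 positive and below 0 in the 3 CD34 negative libraries.

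Substrates and partners of the convertases were examined in 11 lists, with *Pcsk4* counted apart. Of all 137 genes in the lists, *Pcsk4* included, 122 were tested. In limma-voom without the block, 0 were higher and 1 lower in CD34 negative CAFs, where 0.121% of all genes were called, and with the tumor as a block 18 were higher and 12 lower, where 8.57% of all genes were called. These shares over all genes also stand beside the counts of each list. The lists were chosen with earlier results of these data known, so no excess over these shares is read. Log2 fold changes of single list genes are those of the blocked fit, and medians those of the unblocked fit. The median log2 fold change of the 122 genes was 0.10, against -0.03 over all genes.

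The inhibitors and trimming enzymes were mostly without a call. The granule proteins *Pcsk1n* and *Scg5*, inhibitor of PCSK1 and chaperone of PCSK2, were too low to test, with *Pcsk1n* at 3 counts in CD34 negative library 1 and at 0 in the others. Carboxypeptidases remove the basic residues that convertases leave behind. *Cpe*, which does so in granules, lay at 19.9 ± 21.1 CPM (SD, n = 3) in the negative and 17.0 ± 13.4 CPM in the positive libraries. Of 5 tested genes, 1 rose with the block, the matrix carboxypeptidase *Cpz*, at 99.5 ± 30.2 against 49.4 ± 5.79 CPM (adjusted p in limma-voom 0.143 unblocked and 0.024 blocked), a call that was lost in edgeR with the block (adjusted p 0.069). None of 8 furin sorting factors was called in either fit, and their median log2 fold change was 0.05. *Fes*, the kinase gene next to *Furin*, lay at 14.8 ± 5.07 and 15.6 ± 2.11 CPM.

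Of 15 TGF-β family precursors tested, 0 were called without the block, and 4 rose and 3 fell in CD34 negative CAFs with it. The unblocked median log2 fold change was 0.39. This is the value of *Bmp4* (0.39 ± 0.76, SE), which was -0.15 with the block and for which no direction is read. *Tgfb1*, a furin substrate, was at 70.0, 102 and 96.4 CPM in the negative and 24.5, 44.4 and 27.4 CPM in the positive libraries, with no overlap. Its log2 fold change was 1.45 ± 0.17 (SE; adjusted p in limma-voom 0.081 unblocked and 0.0017 blocked). *Bmp7*, a bone morphogenetic protein (log2 fold change 1.48, adjusted p in limma-voom with the block 0.0051), and *Inhbb*, an activin subunit (1.499, 0.023), also rose with the block, and the BMP-like ligand *Gdf10* fell (-1.57, 0.0015). The call of *Inhbb* was lost in edgeR with the block (adjusted p 0.059). *Bmp4* was low and variable, at 5.86 ± 3.85 and 6.46 ± 5.80 CPM.

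Of 11 growth factor and hormone precursors, 1 fell without the block, and 1 rose and 3 fell with it. *Vegfd*, whose product is matured by convertases, was at 20.9, 29.5 and 30.8 CPM in the negative and 123, 188 and 146 CPM in the positive libraries. The log2 fold change of -2.50 ± 0.15 (SE) was close to that of *Pcsk6*, and passed in limma-voom without the block (adjusted p 0.017) and with it (7.8e-05). The unblocked call was lost without CD34 negative library 3 (-2.58, adjusted p 0.087), CD34 positive library 2 (-2.36, 0.069) or CD34 positive library 3 (-2.52, 0.065). *Vegfc*, its paralog and a convertase substrate too, had the opposite sign, at 62.9 ± 10.3 against 31.1 ± 17.4 CPM, with a log2 fold change of 1.04 ± 0.28 that did not pass in limma-voom (adjusted p 0.295 unblocked and 0.050 blocked, the latter just above the threshold). Its unblocked fold change of 1.07 was 1.73 without CD34 positive library 2 and 0.57 without CD34 positive library 3, and its blocked value passed in DESeq2 (adjusted p 0.0063). The neurotrophin *Bdnf* rose with the block by 0.97 on the log2 scale (adjusted p in limma-voom 0.566 unblocked and 0.013 blocked), while its level overlapped between the groups, at 49.4, 66.5 and 16.7 against 31.1, 32.8 and 6.42 CPM. This call was lost with the block without tumor 2 (adjusted p in limma-voom 0.190), and the unblocked fold change of 0.94 was 0.27 without CD34 positive library 3, 0.57 without CD34 negative library 2, 1.54 without CD34 negative library 3 and 1.72 without CD34 positive library 2.

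Of 19 metalloprotease precursors, 0 were called without the block, and 3 rose and 2 fell with it. *Mmp11*, a stromal metalloprotease activated by furin inside the cell, had a log2 fold change of 1.72 (adjusted p in limma-voom 0.219 unblocked and 0.00070 blocked), the procollagen peptidase *Adamts2* 1.12 (0.098 and 0.0020) and the aggrecanase *Adamts4* 0.68 (0.394 and 0.020). *Adamts5*, another aggrecanase, fell with the block (-1.07, adjusted p in limma-voom 0.017), as did *Adamts1* (-0.60, 0.043). In edgeR with the block the calls of *Adamts4*, *Adamts5* and *Adamts1* were lost (adjusted p 0.069, 0.080 and 0.131). In limma-voom with the block, that of *Adamts4* was also lost without tumor 1 (adjusted p 0.072) and that of *Adamts1* without tumor 2 (0.237) or tumor 3 (0.066), and the value of *Adamts5* was -0.69 without tumor 3. Without the block, *Adamts4* (0.69) was 0.45 without CD34 negative library 1 and 0.41 without CD34 positive library 3, and *Adamts1* (-0.63) was -1.03 without CD34 negative library 1, -0.41 without CD34 negative library 3 and -0.41 without CD34 positive library 1. The abundant *Mmp14*, a membrane-type metalloprotease, lay at 1299 ± 213 and 1093 ± 176 CPM and *Bmp1*, the procollagen C-peptidase, at 588 ± 94.9 and 634 ± 192 CPM, neither of which passed.

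Receptor and integrin precursors had the highest unblocked median of the 11 lists, 0.75, against -0.03 over all genes, with 12 of 15 higher in CD34 negative CAFs. Within tumors 1, 2 and 3 the median difference was -0.08, 0.57 and 0.74, so the list was not higher in tumor 1. None of the 15 was called without the block, and 6 rose and 1 fell with it. *Notch3* was at 56.1, 55.6 and 51.8 CPM in the negative and 31.9, 18.9 and 10.1 CPM in the positive libraries (log2 fold change 1.55, adjusted p in limma-voom 0.076 unblocked and 0.0060 blocked). *Notch3* is also 1 of the 5 pericyte markers, whose directions differed. *Notch1* (1.01, adjusted p in limma-voom 0.176 unblocked and 0.0071 blocked) and the integrin *Itga8* (1.40, 0.229 and 0.0072) rose with the block too. The level of *Itga8* overlapped between the groups, at 105.5, 28.7 and 50.0 against 53.5, 11.6 and 10.6 CPM. It also differed between tumors in the limma-voom F test (adjusted p 0.0086). *Igf1r* did not pass, at 58.4 ± 3.83 and 51.1 ± 10.1 CPM. Of 7 matrix and lipase-axis substrates, the collagen crosslinking enzyme *Loxl2* fell with the block (-0.63, adjusted p in limma-voom 0.316 unblocked and 0.023 blocked), a call lost in edgeR with the block (adjusted p 0.084) and in limma-voom with the block without tumor 2 (0.105). *Fbn1*, the microfibril protein cut by furin, lay at 5245 ± 642 and 6489 ± 1824 CPM without a call.

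Of 17 prohormones and granins, 7 were tested and 2 fell with the block. *Scg3*, a granin, was at 14.8, 33.0 and 6.71 CPM in the negative and 213, 320 and 100 CPM in the positive libraries, with a log2 fold change of -3.60 ± 0.19 (SE; adjusted p in limma-voom 0.073 unblocked and 3.6e-05 blocked). *Penk*, the enkephalin precursor, was at 99.3 ± 58.5 and 183 ± 48.8 CPM (-1.003, adjusted p in limma-voom 0.298 and 0.027), with the blocked call lost in edgeR (adjusted p 0.095) and an unblocked value of -1.04 that was -0.67 without CD34 negative library 2. Both were thus detected in libraries in which *Pcsk1* and *Pcsk2* were at or near 0.

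For site-1 protease, 2 of 13 partners and substrates rose with the block and 0 without it. *Scap*, the escort of SREBP proteins, was at 105, 115 and 101 CPM in the negative and 47.5, 62.2 and 56.3 CPM in the positive libraries (log2 fold change 0.94, adjusted p in limma-voom 0.077 unblocked and 0.0045 blocked). *Srebf1* had a log2 fold change of 0.76 (0.154 and 0.013 in limma-voom), and *Srebf2* of 0.59 (0.366 and 0.060). *Mbtps2*, the site-2 protease that makes the second cut, lay at 17.7 ± 2.76 and 17.9 ± 3.00 CPM, and *Atf6* at 103 ± 7.21 and 92.1 ± 9.40 CPM. Of 11 SREBP target genes, 1 rose with the block (*Cyp51*, a sterol demethylase, 0.58, adjusted p in limma-voom 0.556 unblocked and 0.040 blocked), and of 10 ATF6 target genes none was called in either fit. The *Cyp51* call was lost in edgeR with the block (adjusted p 0.081) and in limma-voom with the block without tumor 1 (0.112) or tumor 2 (0.157), and its unblocked fold change of 0.58 was 0.16 without CD34 positive library 1 and 0.87 without CD34 negative library 1. The unblocked medians of these target lists, 0.02 and 0.06, were close to that of all genes. Within tumors 1, 2 and 3 the median difference of the SREBP target genes was 0.77, 0.42 and 0.15, higher in CD34 negative CAFs each time. That of the ATF6 target genes was 0.008, -0.28 and 0.25. The unblocked median therefore does not show that the SREBP target genes were unchanged.

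**Figure D5:**
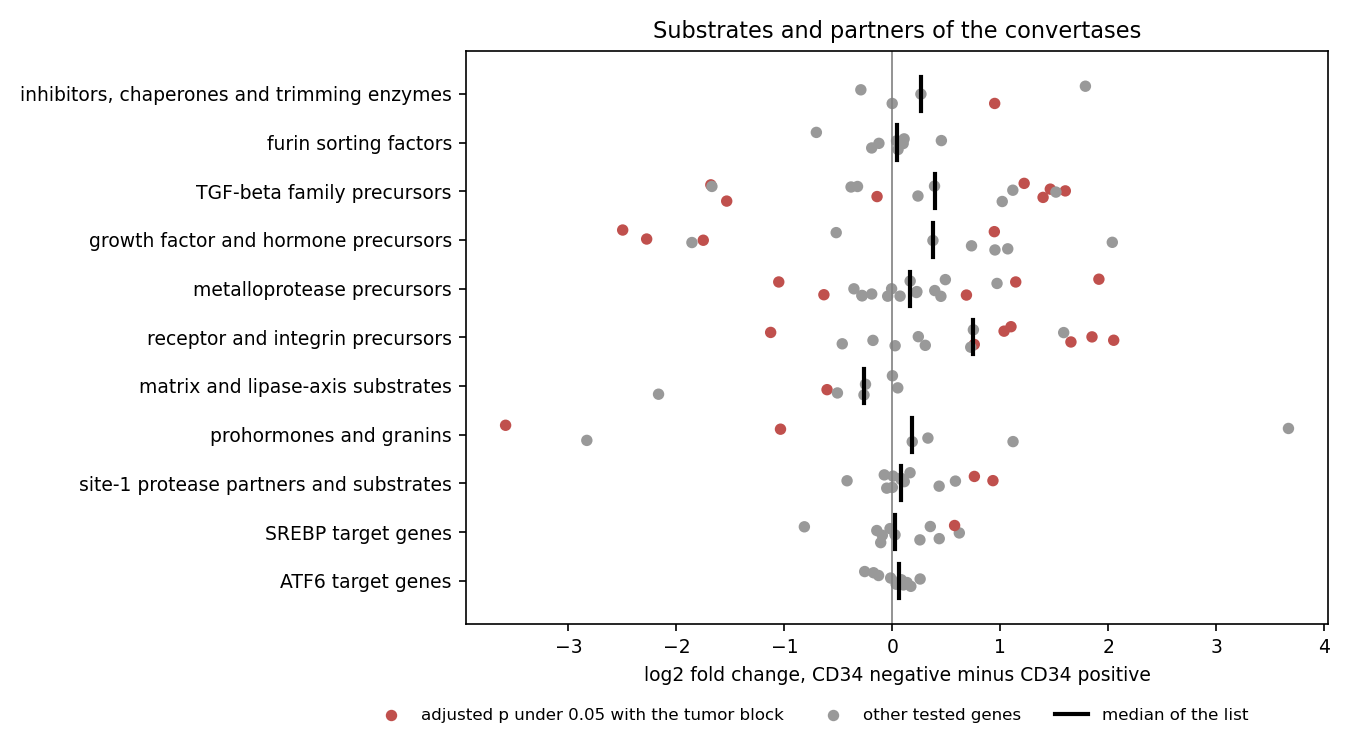
Unblocked log2 fold change, CD34 negative minus CD34 positive, of every tested gene in the 11 lists of substrates and partners (points), with genes that passed limma-voom with the tumor block in red and the median of each list as a black bar. Medians run from -0.26 for matrix and lipase-axis substrates to 0.75 for receptor and integrin precursors, and those of the SREBP and ATF6 target genes lie near 0.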

How the data were processed

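The authors aligned reads of 6 polyA RNA libraries to GRCm38 (mm10) and deposited raw counts per NCBI gene, made with featureCounts, with replicates kept apart; strand use was not stated in the sources used here. Of 27179 genes, 1310 without a symbol were kept. Genes were filtered with filterByExpr (minimum count 10) and compared with limma-voom (R 4.3.3, limma 3.58.1, edgeR 4.0.16) after TMM scaling, without a tumor term, since the study's methods mention none, with Benjamini-Hochberg adjustment over 14855 genes and a two-sided threshold of 0.05. CPM and RPKM used TMM-scaled totals and the deposited gene lengths; marker CPM used the library total alone.

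Tumor numbers pair the libraries, since both fractions came from 1 tumor. Deviations from the group means correlated at 0.373, 0.350 and 0.219 in tumors 1, 2 and 3. P-values without the block measure the spread of libraries within a fraction. Those with the block, and those of the tumor F test, measure the spread left after fraction and tumor terms. All rest on these 3 tumors. The block, edgeR, DESeq2 1.42.0, RLE scaling, no filter and leaving out each library or tumor were alternatives.

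The members and lists were chosen with earlier results of these data known. Named were the members, fixed genes, the 6 genes most like Pcsk6, and per list up to 3 genes per direction that passed with the block, had 1 sign in all 3 tumors and averaged 3 or more on the log2 CPM scale. Gene positions and promoters are those of RefSeq, and exon overlaps those of GENCODE. Protein sequences were not used here.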

Additional observations from a re-analysis of the deposited data

How the results depend on the processing

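The log2 fold change of *Pcsk6* ranged from -2.78 to -2.43 over 16 alternatives, that of *Furin* from 0.41 to 0.71, *Pcsk5* 0.31 to 0.45, *Pcsk7* 0.08 to 0.30 and *Mbtps1* 0.13 to 0.33, with no change of sign. Over all genes, the 18 called without the block became 22 with RLE scaling, 26 without the low-count filter, 9 in edgeR and 674 in DESeq2. With the tumor block they became 1273 in limma-voom, 575 in edgeR and 1730 in DESeq2, and without tumor 1, 2 or 3 the block gave 1134, 851 and 2019. Leaving out 1 library gave 0 to 34 calls: 0 without CD34 negative library 3 or CD34 positive library 2 (2217 and 1555 genes in limma-voom at an unadjusted p under 0.05), 7 and 3 without CD34 negative libraries 1 and 2, and 34 and 2 without CD34 positive libraries 1 and 3. Among the list genes the 1 call became 17 in DESeq2, and with the block 30 in limma-voom, 15 in edgeR and 37 in DESeq2 (28, 25 and 42 without tumor 1, 2 or 3 in limma-voom), and 0 to 1 when 1 library was left out. Differences between tumors were called for 598 genes, 405 without the filter and 167 in edgeR, and for 686 to 5180 when 1 library was left out.

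*Pcsk4* (log2 fold change 2.85) reversed in edgeR (-0.57), DESeq2 (-0.60) and with the block without tumor 2 (-1.03) or tumor 3 (-1.90). No direction was read for *Bmp1*, *Bmp4*, *Cpe*, *Fbn1*, *Fes*, *Mbtps2*, *Pcsk7* and *Pdgfra*, whose changes were smaller than their SE in limma-voom without the block. With the block, *Pcsk7* (0.22 ± 0.17), *Fbn1* (-0.27 ± 0.14) and *Pdgfra* (-0.15 ± 0.12) exceeded their SE, and none of them passed. Depth limits *Pcsk1* and *Pcsk2*. The cause of these differences between settings was not tested.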
